A study of Mus musculus with 2 samples.

Results

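The table of this study lists 23672 transcribed loci of mouse thigh muscle, and 12890 of them carry no gene name. The loci described here are the unnamed ones whose interval overlaps, by at least 1 bp and on any strand, the interval of a locus that does carry a gene name. There are 9236 of them, 71.7% of the unnamed loci and 39.0% of all loci. The named locus that shares the most bases with such a locus is called its host gene. Of the 9236 loci, 9007 overlap 1 named locus, 227 overlap 2 and 2 overlap 3. The smallest overlap was 10 bp, and the nearest unnamed locus left out lay 1 bp from a named one. Overlap with another of the 9236 loci was seen in 626, and 404 had a host that merges several gene symbols. For comparison there are 10782 named loci and 3654 unnamed loci that touch no named locus.

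Polyadenylated RNA was taken from skeletal muscle of the thigh of B6C3F1 mice aged 26 months. The control mice set the reference for intake, and mice under calorie restriction (CR) ate about 40% less energy for 25 months of a diet enriched in protein, vitamins and minerals. Each group is 1 library of 76-bp paired reads, so no difference between them has a replicate check, and the number of mice behind each library is not stated in these sources. Values are FPKM (sequenced fragments relative to transcript length and library size), control first and CR second wherever a pair is given. Ratios are CR over control, each with 1 FPKM added, which understates the difference of low loci. A locus is called higher or lower when this ratio is at least 2-fold.

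Eukaryotic genes are often transcribed on both strands. Natural antisense transcripts arise from the strand opposite a gene, at its promoter, across its 3' end or inside its body, and some of them alter the transcription, splicing or stability of the sense RNA. Introns also hold small nucleolar RNAs and repeats, and unprocessed RNA of a gene still contains its introns. A transcript assembler joins reads into loci and takes the strand from splice sites, where there are any, or from the library chemistry. The kit used here, as described, does not mark strand, so reads of a host gene and of a locus lying over it cannot be told apart. Every level, strand and ratio below has to be read with that limit.

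A few loci cover the start of a gene and the DNA just before it. Of the 9236 loci, 53 held a host start together with the 250 bases before it, and 46 of these lay on the opposite strand. The span of the host equalled the length of its RefSeq gene in 7 of the 46. For the 3 of the 7 with the highest mean level, predicted genes left out, the 250 bases upstream of the start are shown, 5' to 3' on the strand of the host gene, from RefSeq on build GRCm38.p6, matched by symbol. They are printed because this DNA is both the promoter of the host gene and, in mm9, inside the unnamed locus. Capitals mark matches to the motifs searched, and the coordinates of the loci themselves are those of build mm9.
Topors, GRCm38.p6 chr4:40269842-40270091, minus strand: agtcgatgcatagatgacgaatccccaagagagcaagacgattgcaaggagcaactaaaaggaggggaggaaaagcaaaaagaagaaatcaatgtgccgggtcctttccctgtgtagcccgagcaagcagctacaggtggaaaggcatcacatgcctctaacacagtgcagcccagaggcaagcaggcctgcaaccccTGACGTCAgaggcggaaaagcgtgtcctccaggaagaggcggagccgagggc
Snrpa, GRCm38.p6 chr7:27196272-27196521, minus strand: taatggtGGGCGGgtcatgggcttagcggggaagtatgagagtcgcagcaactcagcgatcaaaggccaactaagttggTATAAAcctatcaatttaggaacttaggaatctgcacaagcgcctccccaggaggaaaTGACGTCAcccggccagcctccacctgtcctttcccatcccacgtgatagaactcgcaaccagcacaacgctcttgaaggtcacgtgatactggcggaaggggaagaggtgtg
Lpp, GRCm38.p6 chr16:24393100-24393349, plus strand: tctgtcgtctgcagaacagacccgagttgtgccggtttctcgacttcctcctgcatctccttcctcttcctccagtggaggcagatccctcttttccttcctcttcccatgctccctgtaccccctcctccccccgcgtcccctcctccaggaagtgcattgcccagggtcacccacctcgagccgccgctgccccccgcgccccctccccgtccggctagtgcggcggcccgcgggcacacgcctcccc

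Topors encodes a ubiquitin and SUMO ligase. Its promoter is covered by a 644-bp unnamed locus on the plus strand at mm9 chr4:40216609-40217252, listed at 306 and 473 FPKM, while Topors stood at 62.0 and 67.2 FPKM. The unnamed locus was thus the more abundant side in both libraries. Snrpa encodes an RNA-binding protein of the spliceosome. The locus over its promoter, chr7:27980463-27991832, was listed at 105 and 113 FPKM against 1369 and 782 FPKM for Snrpa, so that here the gene was the more abundant side. Lpp encodes a focal adhesion protein. The locus over its start, chr16:24392645-24393647, was listed at 61.4 and 75.7 FPKM against 344 and 588 FPKM for Lpp. None of the 3 loci reached a 2-fold ratio between the libraries.

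The motifs searched on both strands were TGACGTCA (the CRE element), GGGCGG (a GC box), CCAAT and TATAAA, none of which contains another. TGACGTCA, chosen after the sequences were seen, is in the Topors and the Snrpa window and in 1.55% of the 32851 RefSeq promoters of the same length. GGGCGG is in the Snrpa window and in 32.7% of promoters, and TATAAA is in the Snrpa window and in 12.4%. CCAAT is in none of the 3 windows and in 33.8% of promoters. The GC content was 55.2% for Topors, 53.6% for Snrpa and 67.6% for Lpp, against a median of 52.4%. A match is a description of letters and not evidence of a bound site.

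Most of the overlapping loci were assigned to the strand opposite their host. Of the 9236, 7362 (79.7%) were opposite, 898 (9.72%) were on the same strand and 976 (10.6%) had no strand listed. Among those with a strand, 89.1% were opposite. The unnamed loci away from genes looked different in this respect, since 89.3% of them had no strand listed. Even short overlapping loci mostly had a strand listed. Of those spanning under 200 bp, 3135 were opposite, 502 were on the same strand and 48 had no strand. How a strand was assigned to such short loci is not stated in these sources and was not tested, so the strand classes are given as listed.

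**Figure D1:**
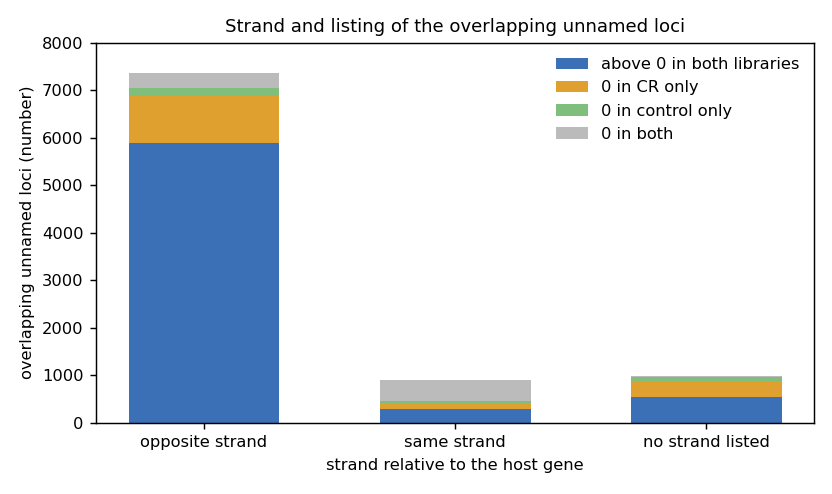
Number of overlapping unnamed loci (vertical axis) by strand relative to the host gene (horizontal axis), with the bars divided by whether the locus is above 0 FPKM in both libraries or listed at 0 in 1 or both. The opposite-strand bar holds 7362 loci, and 444 of the 898 same-strand loci are listed at 0 in both libraries.

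The overlapping loci were short. Their median span was 267 bp, against 22881 bp for named loci and 673 bp for unnamed loci away from genes, and it ranged from 65 to 179451 bp. Opposite-strand loci had a median of 236 bp, same-strand loci 171 bp and loci without a strand 680 bp. Of the 9236, 3685 (39.9%) spanned under 200 bp, which is about the length of the RNA fragments that were sequenced, while 3 named loci and 365 (9.99%) of the other unnamed loci did. Few fragment positions fit in such a short stretch, and its value per length is correspondingly uncertain. Of the 114 loci of exactly 65 bp, the shortest span listed, 113 were at 0 in both libraries.

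Level declined with span across loci. Among loci above 0 in both libraries, the median control level was 708 FPKM for spans up to 100 bp, 205 FPKM for 101 to 200 bp, 72.3 FPKM for 201 to 500 bp and 35.8 FPKM for 501 to 1000 bp. It was 41.6 FPKM for 1001 to 5000 bp and 60.3 FPKM above that. The correlation of log2 span with log2 control level was -0.36 across 6713 loci, which share the library and a level computed from their own length. The shortest class was thus both the highest when detected and the most often empty, with 344 of its 606 loci (56.8%) at 0 in both libraries.

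Over all 9236 loci the median level was 62.2 FPKM in control and 45.7 FPKM in CR. Named loci had medians of 224 and 225 FPKM and the other unnamed loci 54.2 and 52.8 FPKM. The overlapping loci made up 31.5% of the summed control FPKM and 25.0% of the summed CR FPKM. Only 3 loci carried 43.5% of that control sum and 38.6% of that CR sum. Levels are per length and comparable between these libraries only, because nothing in these sources explains the scale of the table.

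Of those 3, the ones in Jarid2 and Gnb1l are described here. Jarid2 encodes a partner of the Polycomb repressive complex, and the 69-bp locus without a strand inside it, chr13:44964936-44965004, was listed at 915719 and 723374 FPKM. Jarid2 itself stood at 292 and 525 FPKM. The 146-bp locus in Gnb1l, chr16:18533281-18533426, was listed at 170972 and 173906 FPKM with the gene at 46.7 and 42.1 FPKM. In both genes the locus exceeded its host more than 1000-fold in both libraries, and neither locus reached 2-fold between the libraries. What these short stretches are was not tested.

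The next most abundant loci had smaller excesses. In Atp2a1, the calcium pump of fast fibres, the opposite-strand locus chr7:133591918-133592390 was listed at 98264 and 70747 FPKM, 102% and 83.5% of the host level of 96498 and 84736 FPKM. In Cd44, the hyaluronan receptor, a 66-bp locus without a strand was listed at 54729 and 5778 FPKM, and it recurs among the largest decreases below. A 70-bp locus in Arhgap21, a GTPase-activating protein, stood at 19402 and 24223 FPKM. In Eef1a2, the elongation factor isoform of muscle and neurons, an opposite-strand locus of 2375 bp, chr2:180888351-180890725, stood at 19908 and 20646 FPKM, against 1849 and 2422 FPKM for the gene. A 70-bp same-strand locus in Fbxl17, an F-box protein, stood at 10853 and 17699 FPKM. All of these had ratios within 2-fold except the one in Cd44.

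Relative to their hosts most loci were low. Over 6688 pairs with both sides above 0 in both libraries, the median level of a locus was 19.8% of its host in control and 20.0% in CR, with 1 FPKM added to both sides. It was 20.8% for opposite-strand, 29.6% for same-strand and 6.91% for strandless loci in the control library. In 677 pairs (10.1%) the locus exceeded its host in control, and in 724 it did so in CR. The log2 levels of locus and host correlated at 0.40 across opposite-strand pairs and at 0.03 across each of the other classes, in the control library. Loci of 1 host share its value and are not independent.

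Almost all loci lay inside the host, and they were crowded toward its 3' end. Of the 9236, 9056 (98.1%) were contained in the host interval, 142 held its start, 290 held its end and 7 held both. With each host divided into 10 equal bins, the middle of the locus fell in the bin at the 3' end in 1773 (19.2%) and in the bin at the 5' end in 590 (6.39%), and 68.2% lay in bins 6 to 10. The exact end base of the host was also an end of the locus in 176 cases, 172 of them opposite-strand and 0 same-strand. Its exact start base was shared in 72 cases, all of them opposite-strand.

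**Figure D2:**
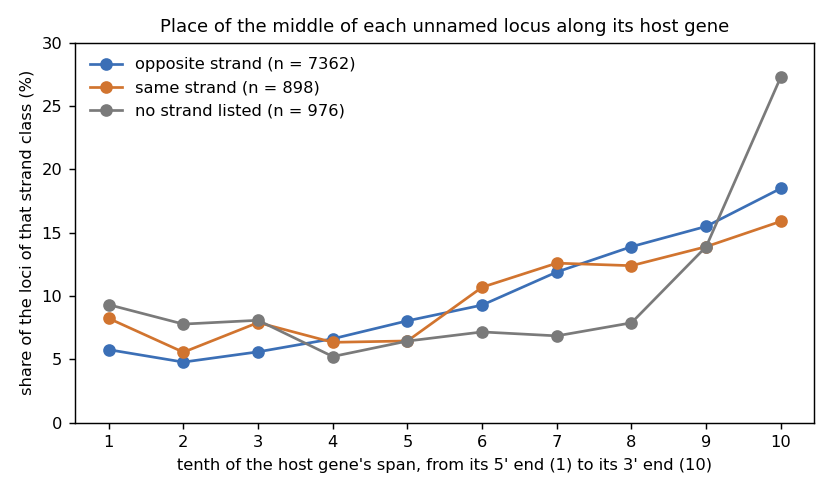
Share of loci in percent (vertical axis) by the bin of the host span that holds the middle of the locus, with 10 equal bins from the 5' end (1) to the 3' end (10), for 7362 opposite-strand, 898 same-strand and 976 strandless loci. All 3 lines are highest in the bin at the 3' end, at 18.5%, 15.9% and 27.3%.

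The loci were spread over 2605 host genes, 24.2% of the named loci. Of these hosts 943 carried 1 locus, 644 carried at least 5 and 160 at least 10. Hosts had a median control level of 353 FPKM and a median span of 30742 bp, against 192 FPKM and 20542 bp for named loci without such a locus. The largest numbers were in Ttn (titin, the molecular spring of the sarcomere) with 52, Neb (nebulin, a thin-filament protein) with 46 and 1300010F03Rik with 35. 2610528E23Rik, Dmd (dystrophin) and Mtor (the growth-controlling kinase) carried 31 each. Long genes expressed in muscle lead this order.

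Ttn, Neb and a locus that merges the sarcomeric myosin heavy chain genes Myh1, Myh3, Myh4 and Myh8 were themselves listed at 0 in both libraries. These genes are abundant in muscle, so a 0 in this table can be a failed estimate rather than absence. Their loci shared the 0: all 52 in Ttn, all 28 in the myosin locus and 42 of 46 in Neb, together 122 of 126. Among the other 9110 overlapping loci, 651 (7.15%) were at 0 in both. The 4 exceptions in Neb were listed at 936 and 30.1, 123 and 31.1, 36.0 and 10.8, and 25.5 and 2.54 FPKM, and all 4 were lower in CR.

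A 0 in 1 library was more frequent on the CR side. Of the overlapping loci, 1436 (15.5%) were at 0 in the CR library alone, against a background of 12.2% of all loci, and 301 (3.26%) were at 0 in the control library alone, against 3.44%. The share at 0 in CR alone was 4.22% for named loci and 27.3% for the other unnamed loci. By strand it was 13.3% for opposite, 13.6% for same and 34.4% for strandless loci. Hosts with at least 5 loci at 0 only in CR numbered 43, led by Mtor with 13 of 31, Dmd with 12 of 31 and Ints1 (a subunit of the Integrator complex) with 11 of 24. Only 2 hosts, Acly and Pygl, had at least 5 loci at 0 only in the control library. The depth of the libraries is unknown, so a 0 sets no upper limit.

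The highest loci listed at 0 in a library were again very short. Gphn (gephyrin) held a 65-bp locus at 26308 and 0 FPKM, Ube2r2 (a ubiquitin-conjugating enzyme) a 66-bp locus at 7452 and 0 FPKM, and 2610528E23Rik a 73-bp locus at 6910 and 0 FPKM. In the other direction Prex2 (a Rac exchange factor) held a 72-bp locus at 0 and 2890 FPKM, Acly a 70-bp locus at 0 and 2293 FPKM, and the locus of Msi2 (an RNA-binding protein) merged with LOC100504473 an 82-bp one at 0 and 1672 FPKM. No fold is given for these. All 6 span under 100 bp.

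Among the 6713 loci above 0 in both libraries, 1234 (18.4%) were higher in CR and 1417 (21.1%) were lower. Over all 19152 loci under the same filter, 11.0% were higher and 11.4% lower, so the overlapping loci passed 2-fold more often in both directions. Named loci did so in 6.10% and 6.82% and other unnamed loci in 11.0% and 3.30%. The median log2 ratio of the overlapping loci was -0.05, with quartiles of -0.82 and 0.70. Among these detected loci the distribution was wide rather than shifted. That does not hold once loci at 0 in 1 library are counted. Of 8439 loci, 1531 (18.1%) were then higher and 2846 (33.7%) lower, with a median log2 ratio of -0.28. Opposite-strand loci detected in both libraries were higher in 17.9% and lower in 22.6%, same-strand loci in 14.8% and 13.8%, and strandless loci in 26.2% and 8.94%. Left out of the strandless shares are 336 of 976 loci (34.4%) at 0 in CR alone and 95 (9.73%) at 0 in control alone. The lean of strandless loci to higher values therefore holds for detected loci only. In bulk tissue, fewer cells of a type and less RNA per cell cannot be told apart behind any of these ratios.

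The width depended on the level. Loci with a mean of 1 to 30 FPKM passed 2-fold in 56.7% of cases, those of 30 to 100 FPKM in 42.6%, those of 100 to 300 FPKM in 36.1%, those of 300 to 1000 FPKM in 22.8% and those above 1000 FPKM in 18.3%. Named loci of the same levels passed in 18.7%, 25.9%, 13.1%, 7.17% and 7.58%. At each of the 5 levels the overlapping loci thus differed between libraries more often than named genes. Their spans are much shorter, and fewer fragments stand behind an equal FPKM. How much of the gap this makes up was not tested.

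The ratio of a locus followed that of its host only loosely, and more closely at higher levels. Across 6688 pairs the correlation of the log2 ratios was 0.15. It was 0.29 across 3210 pairs in which the locus had a mean of at least 100 FPKM, 0.45 across 1364 pairs of at least 300 FPKM and 0.52 across 345 pairs of at least 1000 FPKM. Ratios of locus and host differed by at least 2-fold in 2731, 964, 274 and 47 of these pairs, from 40.8% of all pairs down to 13.6% at the highest levels. The points share both libraries, and pairs in 1 gene share the host value.

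Where a host differed, its loci leaned the same way. In the 198 pairs with a host at least 2-fold higher in CR, 91 loci (46.0%) were higher and 33 lower. With a mean of at least 300 FPKM there were 43 such pairs in 21 hosts, with 31 loci higher (72.1%) and 0 lower. In the 333 pairs with a host at least 2-fold lower, 106 (31.8%) were lower and 40 higher, and at 300 FPKM it was 18 lower and 2 higher of 52. In the 6157 pairs with a host within 2-fold, 1098 (17.8%) were higher and 1274 (20.7%) lower. Together, 197 pairs passed 2-fold together and 73 passed it in opposite directions.

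**Figure D3:**
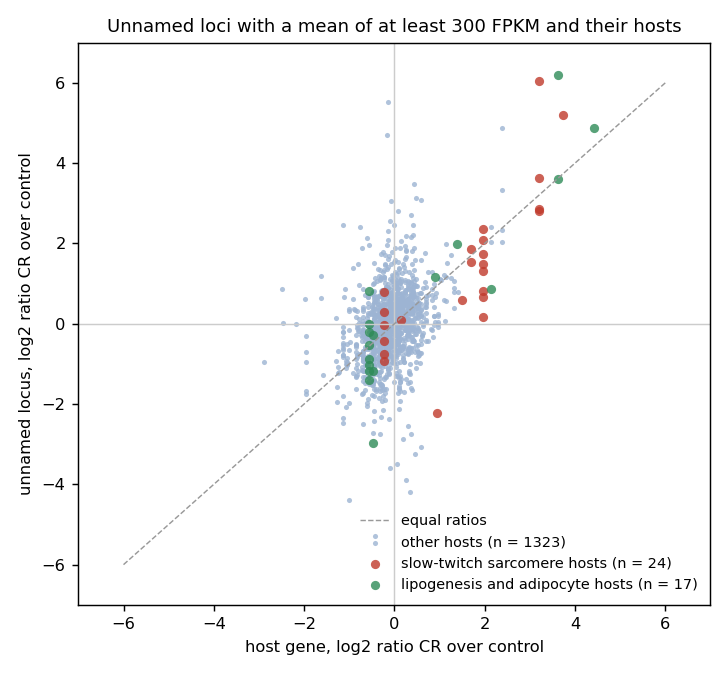
Log2 ratio of CR over control of the host gene (horizontal axis) and of the unnamed locus (vertical axis) for 1364 pairs in which the locus has a mean of at least 300 FPKM. Loci of slow-twitch sarcomere hosts (red, n = 24) and of lipogenesis and adipocyte hosts (green, n = 17) reach the upper right, and most other pairs lie around 0 with a vertical spread larger than the horizontal one.

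In some of the slow-twitch sarcomere genes loci and hosts stood high together. Of the 18 genes in that list 10 carried loci, 36 in all, and of the 33 above 0 in both libraries 17 were higher and 2 lower, beside 18.4% and 21.1% of all overlapping loci. The median log2 ratio was 1.32, beside -0.05 over all overlapping loci, and the median of their hosts over the same pairs was 1.97. Atp2a2 supplied 9 of the 33 pairs, and both medians fall on its values. Of the 17 higher loci, 5 lay in Atp2a2, 4 in Myh7, 3 in Tnni1 and 3 in Myl3. Tnni1 encodes troponin I of slow fibres and stood at 408 and 5480 FPKM. Its 3 opposite-strand loci were listed at 28.9 and 1095, 7.54 and 323, and 8.15 and 328 FPKM, all within 5.17 to 5.24 on the log2 scale.

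Myh7, the slow myosin heavy chain, stood at 8953 and 81978 FPKM. Its 4 opposite-strand loci were listed at 206 and 2543, 150 and 1093, 517 and 3604, and 8.31 and 615 FPKM. All 4 were higher in CR, the last, chr14:55611508-55611722, by 66.1-fold. They amounted to 0.10% to 5.79% of the Myh7 level in the control library. Actc1, the cardiac actin, which is not in the slow-twitch list, stood at 3172 and 16540 FPKM, and its 5 loci spanned log2 ratios of 2.03 to 4.88. The one at its 3' end, chr2:113873023-113873350, shares the last base of the gene and stood at 189 and 5576 FPKM. Myh7 and Actc1 have near-identical relatives (Myh6, Acta1), and how reads shared with them were counted is not stated in these sources.

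Atp2a2, the calcium pump of slow fibres, stood at 1116 and 4370 FPKM. Its 9 loci were all above 0 and had log2 ratios of 0.18 to 2.37, the highest locus by CR level being listed at 696 and 2341 FPKM. Myl3, the slow ventricular light chain, stood at 891 and 2910 FPKM, and its 4 loci were listed at 38.9 and 238, 784 and 2846, 387 and 1123, and at 0 in both. Tnni1, Myh7, Atp2a2 and Myl3, all in the list, were at least 2-fold higher themselves. Fast-twitch genes had 46 loci in 9 hosts, 28 of them at 0 in both libraries, with 2 higher and 1 lower of 17 and a median of -0.26. In Tpm1 (alpha-tropomyosin) a locus stood at 1892 and 3192 FPKM, and in Myl1 (the fast essential light chain) one stood at 660 and 399 FPKM.

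Genes of fat synthesis held some of the highest ratios. Fasn, the fatty acid synthase, stood at 164 and 2041 FPKM, and its 4 opposite-strand loci at 8.27 and 676, 20.7 and 527, 60.6 and 750, and 9.04 and 349 FPKM. The first of them, chr11:120667283-120670572, had the highest ratio of all overlapping loci with a mean of at least 300 FPKM, at 73.1-fold. Acly, ATP citrate lyase, which supplies acetyl-CoA for fat synthesis, stood at 181 and 3887 FPKM. Of its 12 loci 10 were at 0 in the control library, and all 12 were above 0 in CR, at 85.3 to 2293 FPKM. The other 2 were listed at 19.7 and 608 FPKM and at 35.8 and 361 FPKM.

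The 12 hosts of the lipogenesis and adipocyte list carried 69 loci, and of 56 above 0 in both libraries 18 were higher and 16 lower, with a median of 0.08. The ratios of locus and host correlated at 0.69 over these pairs, but 17 of the 56 lie in 1 host and share its value. Among the gene lists this correlation ran from -0.12 (clock and nuclear receptors) to 0.83 (noncoding and imprinted hosts). It was 0.71 for glycolysis and glycogen. White adipocyte markers stood higher in the CR library, with a summed level of 3533 and 16183 FPKM over 6 genes, 5 of them at least 2-fold higher and none at 0. Their part in the values of Fasn and Acly was not tested. Vldlr, the receptor for very low density lipoprotein, went the other way at 1007 and 476 FPKM, with 8 of its 11 loci lower and 1 higher.

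**Figure D4:**
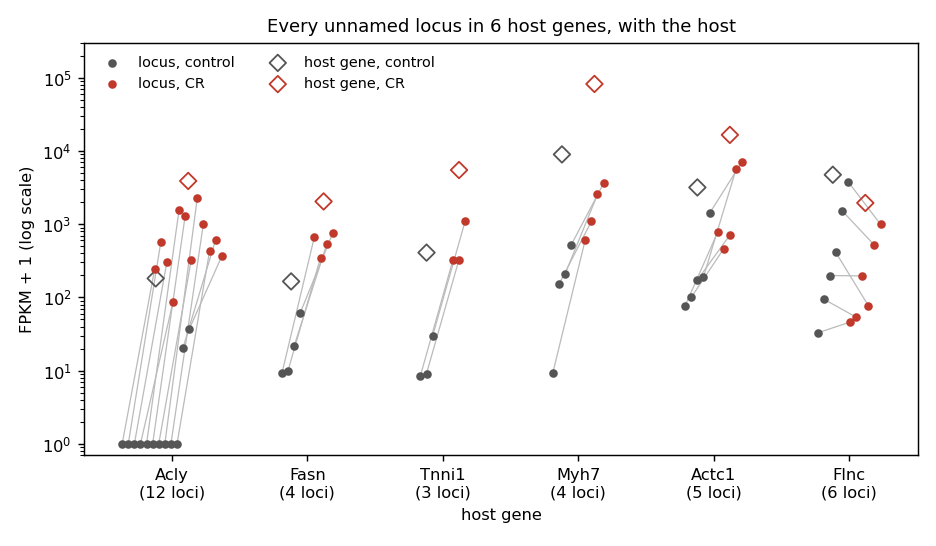
FPKM + 1 (vertical axis, log scale) of each unnamed locus (dots, control in grey and CR in red, joined by a line) and of the host gene (diamonds) for 6 hosts. All loci of Acly, Fasn, Tnni1, Myh7 and Actc1 lie higher in CR, while 5 of the 6 in Flnc do not.

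Genes of carbohydrate and energy metabolism were mixed. In glycolysis and glycogen genes 8 loci were higher and 8 lower of 49, with a median of -0.10. Pygl, the liver isoform of glycogen phosphorylase, stood at 29.0 and 771 FPKM, and its 6 loci were all listed at 0 in control and at 12.9 to 295 FPKM in CR. A locus in Fbp2 (muscle fructose bisphosphatase) stood at 568 and 2250 FPKM. In oxidative phosphorylation genes 10 loci were higher and 0 lower of 40, with a median of 0.51 against 0.28 for their hosts. Over all overlapping loci 18.4% were higher and 21.1% lower, and the difference was not tested. In Sdhd, a subunit of succinate dehydrogenase, a locus stood at 76.9 and 676 FPKM while the gene stood at 1867 and 2608 FPKM. Fatty acid oxidation and uptake genes had 1 higher and 1 lower of 23, and the loci with the largest ratios at 300 FPKM stood at 1099 and 2077 FPKM in Cd36 (the fatty acid transporter) and at 1020 and 1857 FPKM in Acsl1 (an acyl-CoA synthetase).

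Some loci stood far above control with a host that did not. Uqcrc1, a core subunit of respiratory complex III, was at 4904 and 4454 FPKM, and the 130-bp locus chr9:108844060-108844189 inside it was at 15.5 and 763 FPKM, 46.2-fold higher. The other 2 loci of Uqcrc1 were at 44.6 and 99.7 and at 7061 and 7778 FPKM. Cacna1s, the voltage sensor of the transverse tubule, was at 3982 and 3540 FPKM, and the 123-bp locus chr1:137984877-137984999 at 24.7 and 669 FPKM, 26.0-fold higher. Among the 13 loci of Cacna1s it was the only one past 2-fold, and 2 were at 0 in both libraries. In Uqcrc1 the locus at 44.6 and 99.7 FPKM also passed 2-fold, and the most abundant one did not.

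Some loci had ratios opposite in sign to those of their hosts. Myo18b, an unconventional myosin of muscle, was at 3970 and 1813 FPKM and a 128-bp locus in it at 133 and 737 FPKM. Prkdc, the DNA-dependent protein kinase, was at 286 and 50.2 FPKM and a strandless locus in it at 590 and 1080 FPKM. Cux1, a homeodomain factor, was at 579 and 339 FPKM and a 108-bp locus in it at 113 and 602 FPKM. The locus in Prkdc stayed within 2-fold, and the larger ratio there was that of the gene.

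The lowest ratios were found mostly in hosts within 2-fold, but such hosts hold 1269 of all 1364 pairs of at least 300 FPKM. Myh13, the extraocular myosin heavy chain, was at 50484 and 37639 FPKM, and the opposite-strand locus chr11:67142511-67142806 in it at 1198 and 29.8 FPKM, 38.9-fold lower. Myh13 starts at chr11:67140605, and the merged myosin locus listed at 0 in both libraries ends at chr11:67122135. How reads shared among myosin genes were counted is not stated in these sources, so the levels of Myh13 and of the locus in it are uncertain. The Neb locus chr2:52149147-52149250, already given at 936 and 30.1 FPKM, was 30.1-fold lower. In Arhgef17, a guanine nucleotide exchange factor at 202 and 99.7 FPKM, a locus of 4819 bp stood at 632 and 29.5 FPKM. That one is long, and both it and its host were lower.

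In Cd151, a tetraspanin at 687 and 876 FPKM, the locus chr7:148655063-148655559 stood at 2157 and 117 FPKM. In Atp6v0b, a subunit of the vacuolar proton pump at 450 and 541 FPKM, an opposite-strand locus ending 10 bp inside the host start stood at 654 and 42.9 FPKM. In Zfp207, a zinc finger protein at 654 and 675 FPKM, a locus stood at 587 and 51.1 FPKM. Each of the 3 loci was above or close to its host in the control library and at 13.5%, 8.09% and 7.70% of it in CR. The Cd44 locus chr2:102669565-102669630 was 9.47-fold lower, a 68-bp locus in C230081A13Rik stood at 10168 and 845 FPKM, and a same-strand locus of 1163 bp in Tppp (a tubulin-binding protein) at 1232 and 147 FPKM.

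The giant and structural protein list had 12 hosts and 206 loci, 121 of them at 0 in both libraries. Of the 68 above 0 in both, 21 were lower and 7 higher, with a median of -0.37. Over all overlapping loci 21.1% were lower and 18.4% higher, and the difference was not tested. The median of the hosts was -0.33 over 64 pairs. Flnc, filamin C of the Z-disc, stood at 4724 and 1947 FPKM. Its loci were listed at 1531 and 516, 3809 and 993, 409 and 76.3, 93.9 and 52.8, and 198 and 195 FPKM, and the last stood at 31.8 FPKM in control with a log2 ratio of 0.49. The first 3 of these were at least 2-fold lower and the last 3 were not.

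In Tacc2, a centrosomal coiled-coil protein at 1898 and 630 FPKM, all 7 loci had lower values in CR, with log2 ratios of -4.07 to -0.14. In Myo18a, an unconventional myosin at 637 and 290 FPKM, all 9 loci had lower values, with log2 ratios of -2.25 to -0.34. Across hosts with at least 3 loci of 100 FPKM or more, 424 in number, the correlation of the median locus ratio with the host ratio was 0.55, and the rank correlation was 0.36. Of the 14 hosts at least 2-fold higher, 9 had a median locus at least 2-fold higher and 1 lower. Of the 14 at least 2-fold lower, 3 had a median locus lower and 0 higher. Chmp1a, an ESCRT-III protein at 1308 and 424 FPKM, was among those that did not follow: of its 6 loci 1 was at 0 in both libraries and the other 5 had log2 ratios of 0.03 to 1.44.

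The remaining lists are given beside the 18.4% higher and 21.1% lower of all overlapping loci, and no difference from these shares was tested. Excitation-contraction coupling genes had 9 higher and 7 lower of 55, and in Trdn (triadin of the calcium release complex) a locus stood at 565 and 2161 FPKM with the gene at 8578 and 10086 FPKM. Atrophy and denervation genes had 2 higher and 3 lower of 19, with a median of -0.25 although their hosts had -1.24. In Gadd45a, a stress-induced regulator at 2088 and 280 FPKM, the locus inside the gene stood at 550 and 285 FPKM, and in Sqstm1, the autophagy receptor at 4260 and 1799 FPKM, one stood at 5739 and 2737 FPKM. The Gadd45a locus thus went from 26.4% of its host to 102%, and the Sqstm1 locus stayed above its host in both libraries.

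Ribosomal protein and translation genes had 1 higher and 0 lower of 9, the higher one in Eef1a1 at 2321 and 5592 FPKM, a gene with many processed copies. A locus of 39941 bp across the end of Eif4ebp1, a repressor of translation, stood at 780 and 500 FPKM. Extracellular matrix and tendon genes had 3 higher and 5 lower of 21, with loci at 255 and 537 FPKM in Col1a2 (a type I collagen chain) and at 263 and 363 FPKM in Thbs4 (a thrombospondin of tendon). Tendon markers summed to 1536 and 943 FPKM over 4 genes, and their part in these values was not tested. Noncoding and imprinted hosts had 1 higher and 5 lower of 15, and a locus in Snrpn and Snurf stood at 750 and 877 FPKM. Clock and nuclear receptor genes had 1 higher and 5 lower of 16, with a locus in Rora (a nuclear receptor) at 487 and 498 FPKM. Blood and immune genes had 1 locus above 0 in both libraries, which was lower. Blood markers summed to 16189 and 48622 FPKM over 2 genes and neutrophil markers to 83.6 and 765 FPKM over 2, with S100a8 at 0 in control. Their part in the values of other loci was not tested. Of the defining muscle markers 7 of 8 were above 0 in both libraries, summing to 882980 and 1213960 FPKM, and the other, Myh4, sits in the merged myosin locus listed at 0.

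Opposite-strand loci that hold the last base of their host numbered 207, and 172 of these stop at that very base. Of the 202 above 0 in both libraries 52 were higher and 20 lower, with a median log2 ratio of 0.25, beside 17.9% higher and 22.6% lower over all opposite-strand loci. Strandless loci that hold the last base had 30 higher and 12 lower of 71, with a median of 0.78. Over all strandless loci 26.2% were higher and 8.94% lower, with a median of 0.32. Opposite-strand loci that hold the first base of their host numbered 123, of which 72 stop at it, with 23 higher and 22 lower of 112 and a median of -0.11. The differences between these classes were not tested.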

How the data were processed

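The build named is mouse mm9 and the tools are TopHat 1.2.0, Cufflinks and Cuffdiff, per the submitters' processing notes, without options or annotation. Per the file headers, each library has 1 column of FPKM by locus, as the authors deposited it. The lowest value is 1, and the digits of low values are those of numbers to which 1 was added, so 1 was subtracted. This offset is inferred. Depth is unknown.

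Loci without a gene name were intersected with named loci (at least 1 bp, any strand) and paired with the named locus sharing most bases. Ratios are log2 of CR FPKM + 1 over control FPKM + 1 for loci detected in both libraries (mean of 1 FPKM or more). Loci at 0 were counted apart. With 1 library per group no test was made. The code was tested on simulated data.

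By rule the text names loci with a mean of at least 300 FPKM that had the highest level, the 8 highest and 8 lowest ratios, the 5 highest and 5 lowest differences from the host and the 4 highest levels over the host, hosts with most loci, the highest loci at 0 in a library and up to 2 loci per gene list. Other loci and hosts described in full, among them all loci of Acly, Fasn, Tnni1, Myh7, Actc1, Atp2a2, Myl3, Flnc, Tacc2, Myo18a, Chmp1a, Pygl and Vldlr, and the loci with promoters shown, were picked with their values in view. The loci and the 14 gene lists were chosen with earlier results of these data known. A few loci chosen by this rule are left out of the text. Promoters came from RefSeq on GRCm38.p6 by symbol, and no coordinates were converted. Alternatives varied pseudocount, filter, scaling, strand, span, overlap and the treatment of zeros. Python 3.11.15, numpy 2.4.6, pandas 2.3.3 and matplotlib 3.10.9 were used.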

Additional observations from a re-analysis of the deposited data

How the results depend on the processing

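Of 111 values under 16 alternative settings, 80 stayed within the margin set for them and 31 moved beyond it. The margin was 1.5 times for counts and 0.1 on the log2 scale for medians. A change of sign was counted only for medians of at least 1 in size, which are the levels over the host, and 0 were seen. Medians near 0 could not count. The median log2 ratio changed from -0.05 to 0.085 on the same strand alone. The median difference from the host changed from 0.04 to -0.17 with zeros counted. Keeping loci of 100 FPKM or more, 455 of 3224 loci were higher (14.1%), 510 lower (15.8%) and 95 of 3170 pairs past 2-fold together. At 300 FPKM these were 143 (10.4%), 155 (11.3%) and 46 (3.76%). Counting loci at 0 in 1 library, 1531 of 8439 were higher (18.1%), 2846 lower (33.7%) and 348 moved together with the host. The median log2 ratio was then -0.28 and the median difference from the host -0.17. On the same strand alone, 44 were higher, 41 lower and 4 together with the host, with a median log2 ratio of 0.085. Among loci of at least 200 bp, a setting added after seeing the data, 128 passed together with the host (2.90% of pairs, against 2.95% over all spans), 950 were at 0 in exactly 1 library (17.1%, against 18.8%) and 4227 (76.1% of 5551) were opposite the host. Among loci of at least 100 FPKM, 297 were at 0 in exactly 1 library (8.44%) and 3204 (91.0% of 3521) were opposite.

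The median log2 level of a locus over its host in the control library was -2.21 at 10 FPKM, -1.16 at 100 FPKM, -0.57 at 300 FPKM, -2.44 with zeros, -1.76 on the same strand and -2.96 for loci of at least 200 bp. In the CR library it was -2.20, -1.14, -0.53, -2.85, -1.60 and -2.89. Subsets hold fewer loci by construction, the level filters keep higher ones, and the other causes were not tested. No paired analysis was possible because each group is 1 library. Unknown depth, loci shorter than a fragment and a kit that does not mark strand limit every value.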
